A study of Mus musculus with 35 samples.

Results

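The genes described here were Prox1, C1ql2, Dsp, Lct, Tdo2, Spink8 and Fibcd1, 7 protein-coding genes used as markers of subfields of the mouse hippocampus. They were taken by gene name from a table of 21203 genes, and all 7 passed the filter on low counts. Prox1, C1ql2, Dsp, Lct and Tdo2 are markers of the granule cells of the dentate gyrus, and Spink8 and Fibcd1 are markers of the pyramidal cells of CA1.

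The hippocampus passes signals through a chain of subfields. Granule cells of the dentate gyrus receive input from the entorhinal cortex and send mossy fibres to CA3, and CA3 pyramidal cells project to CA1, the main output field. Granule cells and pyramidal cells of each field express partly different genes, so that markers of this kind are commonly used to tell which subfields a piece of tissue holds.

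Bulk RNA-seq was run on brain tissue of male mice of the C57BL/6NCrl strain, 8 to 9 weeks old at the start. Injured mice received a closed head injury, that is, an impact on the intact skull, and 5 days later an injection into the left hippocampus of vehicle (PBS), naive mesenchymal stem cells (MSCs) or MSCs transfected with synthetic IL-4 mRNA (IL-4 MSCs). Tissue was taken at 1 week post-injury (1 wpi), 2 days after the injection, or at 3 wpi. Sham mice went through the procedure without the injury and without an injection, so that no injured group without an injection and no uninjured group with one was compared here. There were 5 mice per treatment and time, except 4 for PBS at 3 wpi, and the Sham group held 2 mice of week 1 and 3 mice of week 3, which made 34 libraries in 7 groups. Each mouse gave 1 library, and mice are named here by the number in their label, counted from 0 within the group.

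The labels call the tissue left cortex, whereas the study's methods describe a block around the site of the injection. The width in the labels, 2 mm, also differs from that in the methods. All 7 hippocampal markers had reads in all 34 libraries, beside summed cortical layer markers (9 genes) of 469 to 623 CPM (counts scaled to the same total in each library). Reads alone, as few as 14 for Spink8, do not settle where a block was cut. The tissue is called the block around the injection site after the methods. Total estimated counts per library ranged from 29838423 to 41554322, which puts a floor of 3 counts at 0.0722 to 0.101 CPM. The lowest value of any member, 0.392 CPM for Spink8, lay above that floor. Estimated counts per library were 724 to 3190 for Prox1, 396 to 2521 for Fibcd1, 62 to 1148 for C1ql2, 49 to 829 for Dsp, 32 to 702 for Lct, 14 to 222 for Spink8 and 21 to 114 for Tdo2, so that single values of Tdo2 and Spink8 carry the largest counting error. In such bulk samples, fewer cells of a type and less RNA per cell cannot be told apart.

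The members lie on 5 chromosomes (GRCm38): Prox1 (ENSMUSG00000010175) at chr1:190118035-190170714, C1ql2 (ENSMUSG00000036907) at chr1:120340582-120343174, Lct (ENSMUSG00000026354) at chr1:128284756-128328318, Fibcd1 (ENSMUSG00000026841) at chr2:31813290-31846005, Tdo2 (ENSMUSG00000028011) at chr3:81957090-81976202, Spink8 (ENSMUSG00000050074) at chr9:109812280-109826633 and Dsp (ENSMUSG00000054889) at chr13:38151294-38198577. The 100 bases before a RefSeq start site (GRCm38.p6, 5′ to 3′ on the gene's strand) are shown for Prox1, Lct and Tdo2, the members that passed a test in the comparisons of the design, and for Dsp, whose values followed those of Lct most closely. Capitals mark a match, on either strand, to one of 4 short motifs, namely CANNTG (the E-box of basic helix-loop-helix factors), TATAAA (the TATA box), GGGCGG (the GC box bound by Sp factors) and CCAAT (the CCAAT box), and in the windows shown no match overlaps another.
Prox1, chr1:190170828-190170927, minus strand: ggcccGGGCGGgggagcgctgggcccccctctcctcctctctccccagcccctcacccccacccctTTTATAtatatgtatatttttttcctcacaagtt
Dsp, chr13:38151194-38151293, plus strand: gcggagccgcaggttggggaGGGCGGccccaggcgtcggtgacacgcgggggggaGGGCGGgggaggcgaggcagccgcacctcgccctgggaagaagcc
Lct, chr1:128328319-128328418, minus strand: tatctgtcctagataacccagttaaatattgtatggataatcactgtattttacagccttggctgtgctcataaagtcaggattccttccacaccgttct
Tdo2, chr3:81975729-81975828, minus strand: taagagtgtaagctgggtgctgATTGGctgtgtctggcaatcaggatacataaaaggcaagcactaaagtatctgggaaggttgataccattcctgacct

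Windows were matched for 6 of the 7 members, all but Spink8. GGGCGG was found for Prox1, Dsp and Fibcd1 and in 24.7% of 32851 promoter windows of this length. TATAAA was found for Prox1 (5.56% of windows) and CCAAT for Tdo2 (18.9%). CANNTG, present in 34.4% of windows, matched no member, and neither C1ql2 nor Lct held any of the 4 motifs, so no motif was shared by all members.

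On the length-scaled scale (TPM), which allows levels to be compared between genes, Prox1 had a median over the 34 libraries of 19.2 TPM, C1ql2 14.8, Spink8 12.9, Fibcd1 11.3, Lct 3.85, Dsp 3.01 and Tdo2 0.896. Prox1 was the highest of the 7 in 23 libraries, C1ql2 in 10 and Fibcd1 in 1, and Tdo2 was the lowest in 33 libraries and Lct in 1. The order of the middle members was not stable. There were 10 different orders of the 7 genes, the commonest of them in 9 libraries, with C1ql2, Spink8 and Fibcd1 changing places between libraries.

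**Figure D1:**
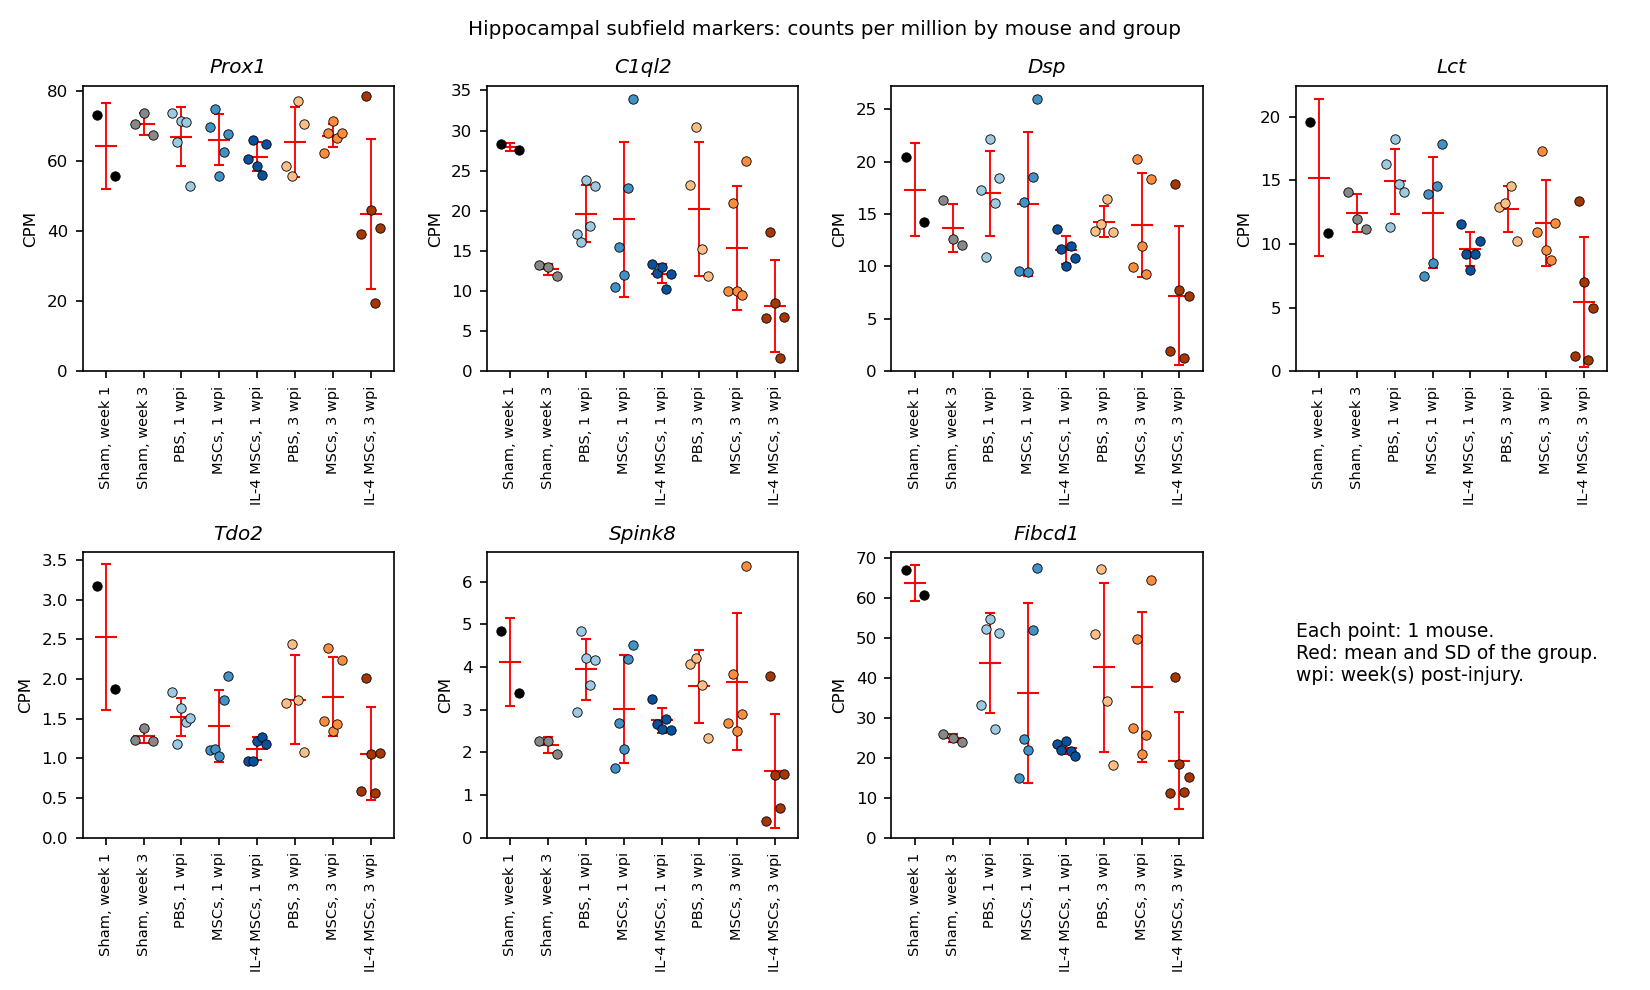
CPM (vertical axis) of the 7 markers, 1 point per mouse, with Sham mice of week 1 and week 3 apart and red bars for the group mean and SD. In the IL-4 MSCs group at 3 wpi, mouse 1 is the highest of its group for every marker, with 78.4 CPM of Prox1 against 19.4 to 46.1 CPM in the other 4 mice.

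Prox1 encodes a homeobox transcription factor that granule cells need and keep expressing, and other brain cells, among them some interneurons, express it too. In Sham mice Prox1 stood at 73.0 and 55.7 CPM in week 1 and at 70.5, 73.5 and 67.5 CPM in week 3. In IL-4 MSCs mice at 3 wpi it stood at 39.2, 78.4, 46.1, 19.4 and 41.0 CPM. Mice 0, 2, 3 and 4 of that group were each below all 29 other mice of the series, where the lowest value was 52.8 CPM, and mouse 1 was above all of them, where the highest was 77.0 CPM. The group means were 68.0 ± 7.31 CPM (SD, n = 5) in Sham mice and 44.8 ± 21.3 CPM (SD, n = 5) in IL-4 MSCs mice at 3 wpi. In the other 5 groups Prox1 lay between 52.8 and 77.0 CPM.

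Lct encodes lactase, a digestive enzyme whose transcript also marks granule cells. It stood at 19.6 and 10.9 CPM in Sham mice of week 1, at 14.1, 12.0 and 11.2 CPM in Sham mice of week 3, and at 1.20, 13.3, 7.03, 0.858 and 4.95 CPM in IL-4 MSCs mice at 3 wpi. Mouse 1 lay among the Sham mice and the other 4 lay below all of them. Means were 13.5 ± 3.59 CPM (SD, n = 5) and 5.48 ± 5.10 CPM (SD, n = 5).

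Dsp encodes desmoplakin, a plaque protein of desmosomes. It stood at 20.4 and 14.2 CPM in Sham mice of week 1, at 16.3, 12.7 and 12.1 CPM in Sham mice of week 3, and at 1.96, 17.9, 7.76, 1.31 and 7.18 CPM in IL-4 MSCs mice at 3 wpi. The pattern over mice was that of Lct, with mice 0 and 3 lowest and mouse 1 within the Sham range.

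C1ql2 encodes a secreted C1q-like protein that mossy fibres place at their synapses. It stood at 28.3 and 27.6 CPM in Sham mice of week 1 but at 13.2, 13.0 and 11.9 CPM in Sham mice of week 3. With IL-4 MSCs it stood at 13.4, 12.2, 12.9, 10.2 and 12.1 CPM at 1 wpi and at 6.64, 17.4, 8.56, 1.66 and 6.70 CPM at 3 wpi. The Sham mice of the 2 weeks did not overlap, and the IL-4 MSCs mice at 1 wpi lay beside the Sham mice of week 3.

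Tdo2 encodes tryptophan 2,3-dioxygenase, an enzyme that opens the kynurenine pathway of tryptophan breakdown. It stood at 3.17 and 1.88 CPM in Sham mice of week 1 and at 1.23, 1.38 and 1.22 CPM in Sham mice of week 3. With IL-4 MSCs it stood at 0.972, 0.961, 1.22, 1.27 and 1.19 CPM at 1 wpi and at 0.588, 2.01, 1.05, 0.563 and 1.07 CPM at 3 wpi. As for C1ql2, the Sham weeks did not overlap, and the IL-4 MSCs mice at 1 wpi lay at or near the level of the Sham mice of week 3.

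Of the CA1 markers, Fibcd1 encodes a transmembrane receptor with a fibrinogen-like domain, and Spink8 a Kazal-type inhibitor of serine peptidases. Fibcd1 stood at 67.0 and 60.7 CPM in Sham mice of week 1 and at 26.1, 25.0 and 23.9 CPM in Sham mice of week 3. With IL-4 MSCs it stood at 23.5, 22.0, 24.3, 21.8 and 20.4 CPM at 1 wpi and at 11.1, 40.3, 18.4, 11.5 and 15.2 CPM at 3 wpi. The Fibcd1 values of all 5 IL-4 MSCs mice at 1 wpi were thus far below those of the Sham mice of the same week. They were close to those of the Sham mice of week 3. Spink8 stood at 4.85 and 3.39 CPM in Sham mice of week 1 and at 2.27, 2.27 and 1.95 CPM in Sham mice of week 3. With IL-4 MSCs it stood at 3.25, 2.66, 2.56, 2.79 and 2.52 CPM at 1 wpi, between the Sham mice of the 2 weeks. At 3 wpi with IL-4 MSCs it stood at 0.392, 3.80, 1.47, 0.698 and 1.49 CPM.

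Mice of the same group could also lie far apart outside the IL-4 MSCs groups. Fibcd1 ranged from 27.1 to 54.7 CPM in PBS mice at 1 wpi, from 15.1 to 67.7 CPM in MSCs mice at 1 wpi, from 18.3 to 67.4 CPM in PBS mice at 3 wpi and from 21.0 to 64.5 CPM in MSCs mice at 3 wpi. These ranges cover much of the distance between the Sham mice of the 2 weeks. By the coefficient of variation (SD over mean), the IL-4 MSCs group at 3 wpi had the widest spread of the 7 groups for 7 of 7 members, at 47.6% to 93.2%. The IL-4 MSCs group at 1 wpi had the tightest spread for 5 of 7 members, and MSCs mice at 3 wpi had it for Prox1 (4.86%) and PBS mice at 3 wpi for Dsp (10.2%).

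The first question of the design was whether injured and injected mice differed from Sham mice. A gene was called when its adjusted p, by edgeR's quasi-likelihood test with Benjamini-Hochberg adjustment over all genes tested, was under 0.05. In IL-4 MSCs mice at 3 wpi, 2 of 7 members were called lower than in Sham mice. Lct fell by 1.34 on the log2 scale (SE 0.38, adjusted p = 0.0395) and Prox1 fell by 0.62 (SE 0.18, adjusted p = 0.0439), in a comparison that called 4.27% of all 17131 genes tested. The other 5 had log2 fold changes of -1.24 for C1ql2 (SE 0.40, adjusted p = 0.0683), -1.10 for Dsp (adjusted p = 0.0971), -1.10 for Fibcd1 (adjusted p = 0.125), -0.78 for Tdo2 (adjusted p = 0.126) and -0.95 for Spink8 (adjusted p = 0.144). All 7 had an unadjusted p under 0.05, and their median log2 fold change was -1.10 against 0.01 over all genes tested.

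These calls turned on single mice. The share of all genes called was not counted in any fit with 1 mouse left out, here or below, so such counts of members have no background. Without IL-4 MSCs mouse 1, the mouse with high values, 7 of 7 members were called lower, with Lct at -1.98 (adjusted p = 0.000457), Dsp at -1.76 (adjusted p = 0.00146) and Prox1 at -0.92 (adjusted p = 0.000129). Without IL-4 MSCs mouse 0, 3 or 4, or without Sham mouse 0, 1 or 2, no member was called, without IL-4 MSCs mouse 2 or Sham mouse 3 a single member was, and without Sham mouse 4 there were 3, with C1ql2 added (adjusted p = 0.0439).

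At 1 wpi, 1 of 7 members was called between IL-4 MSCs and Sham mice. Tdo2 fell by 0.74 on the log2 scale (SE 0.29, adjusted p = 0.0462), from a mean of 1.78 ± 0.825 CPM (SD, n = 5) to 1.12 ± 0.146 CPM (SD, n = 5), where 37% of all genes were called. The share of members called was below that background. Fibcd1 had a log2 fold change of -0.94 (adjusted p = 0.0744) and C1ql2 of -0.71 (adjusted p = 0.157), and the other 4 lay between -0.57 and -0.18. The call for Tdo2 was lost when any 1 of the 5 IL-4 MSCs mice or Sham mouse 0 or 1 was left out, and over the alternatives tried its adjusted p ran from 0.00363 to 0.0805.

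With PBS or MSCs no member was called against Sham mice. In PBS mice at 1 wpi the 7 log2 fold changes ran from -0.28 to 0.38 where 13.8% of genes were called, and in MSCs mice at 1 wpi they ran from -0.40 to 0.02 where 17.8% were called. At 3 wpi they ran from -0.10 to 0.24 with PBS and from -0.31 to 0.29 with MSCs, where 0.0292% and 1.15% of genes were called. No member reached an unadjusted p under 0.05 in these 4 comparisons by edgeR.

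The Sham group joins mice of different weeks, and the levels above differed between them. Week 3 against week 1, the log2 difference was -1.37 for Fibcd1 (SE 0.52, adjusted p = 0.194), -1.15 for C1ql2 (SE 0.50, adjusted p = 0.259), -0.99 for Tdo2 (adjusted p = 0.177) and -0.94 for Spink8 (adjusted p = 0.345). It was -0.35 for Dsp, -0.31 for Lct and 0.12 for Prox1. None of the 7 was called, as against 0.0922% of 17362 genes, and 3 had an unadjusted p under 0.05. For Fibcd1, C1ql2, Tdo2 and Spink8, 4 of 7 members, the mice of the 2 weeks did not overlap in CPM, which was also the case for 39.5% of all genes with 2 mice against 3. The labels carry 1 further number per Sham week and 1 per injured group, so whatever it stands for cannot be told apart from the week or the group.

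Comparing each injured group with the Sham mice of its own week changed which members passed. At 1 wpi with IL-4 MSCs, 3 of 7 members were called lower than in the 2 Sham mice of week 1, where 33.9% of genes were called. Fibcd1 fell by 1.59 (SE 0.46, adjusted p = 0.00760), C1ql2 fell by 1.28 (SE 0.44, adjusted p = 0.0253) and Tdo2 fell by 1.24 (SE 0.33, adjusted p = 0.00363). The Sham mice of week 3 as the reference gave no call for IL-4 MSCs mice at 1 wpi, against 28.6% of genes. MSCs mice at 1 wpi had a log2 fold change for Tdo2 of -0.91 (adjusted p = 0.0509) and PBS mice of -0.79 (adjusted p = 0.112) against the Sham mice of week 1, with no member called in either where 17% and 11.2% of genes were.

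At 3 wpi with IL-4 MSCs, no member was called against the 3 Sham mice of week 3, where 0.95% of genes were. Lct had a log2 fold change of -1.22 (adjusted p = 0.177), Dsp of -0.96 (adjusted p = 0.320) and Prox1 of -0.68 (adjusted p = 0.105), whereas Fibcd1 was at -0.40 (adjusted p = 0.756) and Tdo2 at -0.30 (adjusted p = 0.741). Against the 2 Sham mice of week 1 instead, C1ql2, Lct, Tdo2, Spink8 and Fibcd1 were called lower, 5 of 7 members, where 9.55% of genes were called. PBS and MSCs mice at 3 wpi had positive log2 fold changes for Fibcd1 against the Sham mice of week 3 (0.75 and 0.58), with no member called and 0.173% and 0.369% of genes called. With the Sham mice of the other week as the reference, no member was called for PBS or MSCs mice at either time, and the share of genes called was 12% with PBS and 13.5% with MSCs at 1 wpi, and 0% with PBS and 0.939% with MSCs at 3 wpi.

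**Figure D2:**
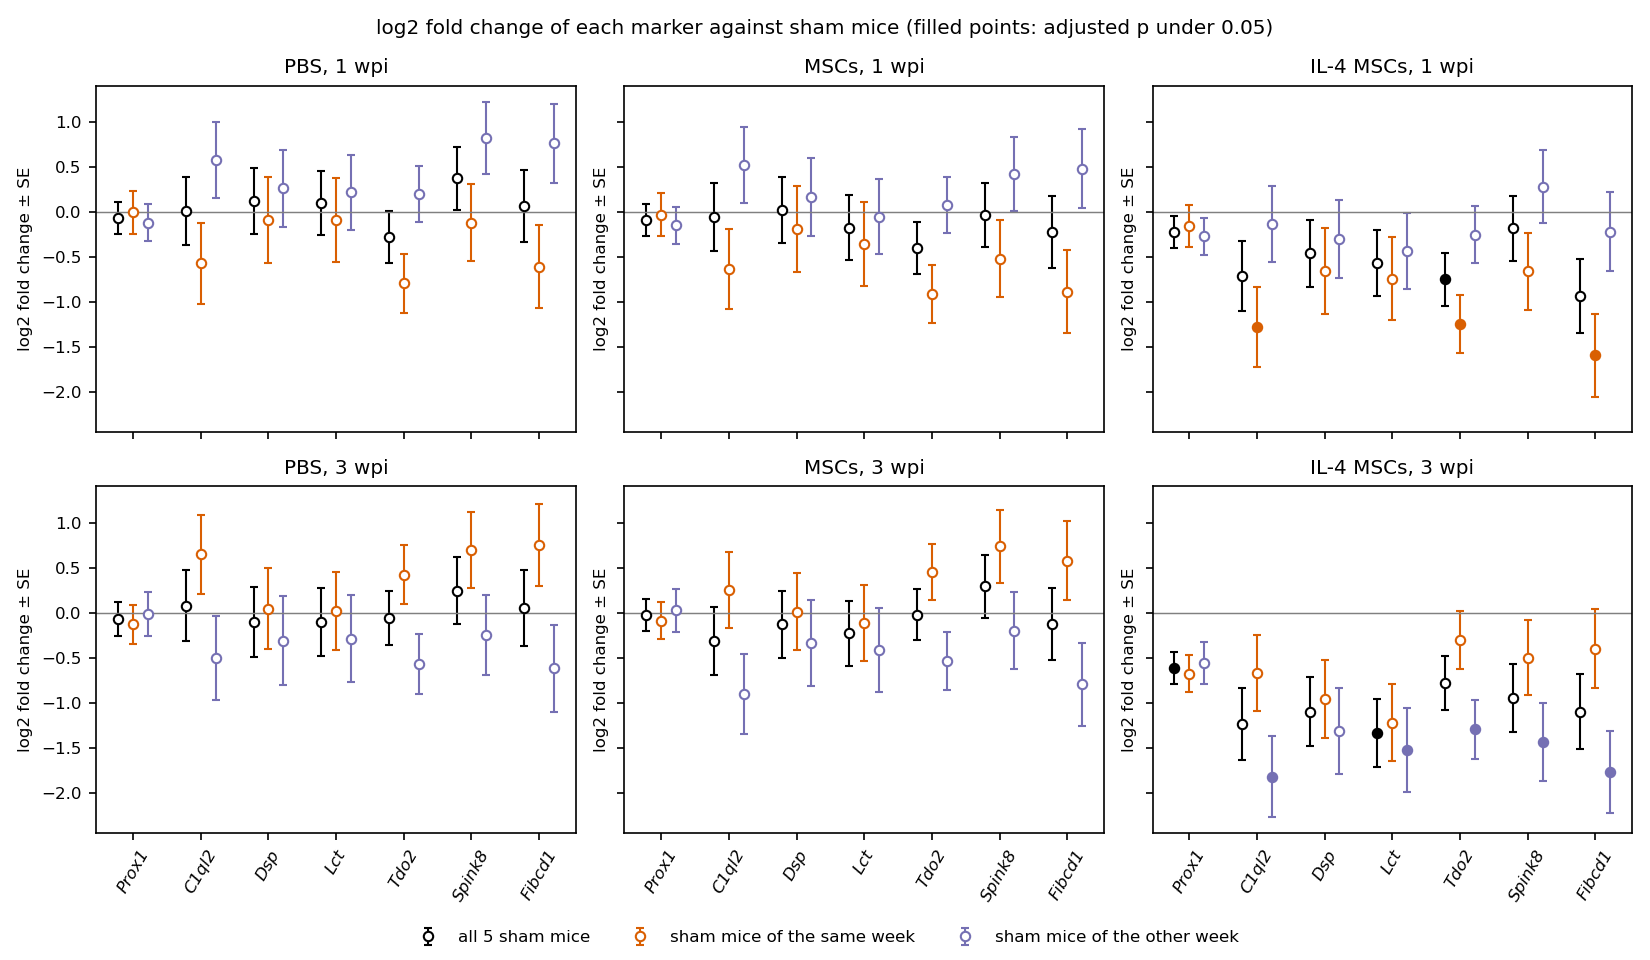
log2 fold change (vertical axis, ± SE) of each marker in the 6 injured groups against all 5 Sham mice (black), those of the same week (orange) and those of the other week (purple), with filled points at an adjusted p under 0.05. The choice of Sham mice moves C1ql2, Tdo2, Spink8 and Fibcd1 most and Prox1, Dsp and Lct least, as for Fibcd1 in IL-4 MSCs mice at 1 wpi, at -0.94 with all 5 and at -1.59 with those of week 1.

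The next question was whether the injected treatment made a difference among injured mice of the same time. At 3 wpi no member was called between IL-4 MSCs and PBS mice, where 2.94% of genes were called, or between IL-4 MSCs and MSCs mice, where 3.47% were. The 7 log2 fold changes ran from -1.31 for C1ql2 (adjusted p = 0.0764) to -0.54 for Prox1 (adjusted p = 0.110) against PBS. They ran from -1.24 for Spink8 (adjusted p = 0.0565) to -0.59 for Prox1 (adjusted p = 0.0624) against MSCs, and all 7 had an unadjusted p under 0.05 in both comparisons. The medians were -1.15 and -0.97. Without IL-4 MSCs mouse 1, 7 of 7 members were called lower in both comparisons, with the share of all genes not counted. MSCs and PBS mice at 3 wpi differed by -0.39 to 0.05 with no member called, where 0.0817% of genes were.

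At 1 wpi, Fibcd1 lay at 20.4 to 24.3 CPM in IL-4 MSCs mice and at 27.1 to 54.7 CPM in PBS mice without overlap, for a log2 fold change of -1.0 (adjusted p = 0.0930). C1ql2 lay at 10.2 to 13.4 CPM against 16.1 to 23.9 CPM, also without overlap (log2 fold change -0.73, adjusted p = 0.214). Groups did not overlap for 14.2% of all genes in this comparison, and 17.4% of genes but no member were called. Against MSCs mice at 1 wpi no member was called either, where 8.69% of genes were, and the median log2 fold change of the members was -0.39. MSCs against PBS mice at 1 wpi gave log2 fold changes of -0.40 to -0.03, with no member and 0.123% of genes called.

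Between times within a treatment, no member was called with PBS (5.51% of genes called), MSCs (6.15%) or IL-4 MSCs (33%). In IL-4 MSCs mice the log2 fold changes of 3 wpi against 1 wpi ran from -0.77 for Lct (SE 0.38, adjusted p = 0.126) to -0.04 for Tdo2 (adjusted p = 0.943), and 5 members were called lower when IL-4 MSCs mouse 1 of 3 wpi was left out. They ran from -0.23 to 0.22 with PBS and from -0.26 to 0.38 with MSCs. Whether the change between times differed between treatments was tested for 21 pairs of a member and 2 treatments, of which none was called and 1 had an unadjusted p under 0.05. Of all 17131 genes tested, 808 were called for IL-4 MSCs against PBS, 1346 for IL-4 MSCs against MSCs and 0 for MSCs against PBS.

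The 5 IL-4 MSCs mice at 3 wpi were not alike. Mice 0 and 3 were below the lowest of the 29 other mice for 7 of 7 members, mice 2 and 4 for 5 of 7, with Tdo2 and Fibcd1 the exceptions, and mouse 1 for none. Over all genes tested, 4.99% lay below the other 29 mice in mouse 0, 2.05% in mouse 1, 5.01% in mouse 2, 8.88% in mouse 3 and 5.23% in mouse 4. In mouse 3, Lct stood at 7.51% of its median over the 34 libraries, Dsp at 9.85%, C1ql2 at 12.5%, Spink8 at 24.5%, Prox1 at 29.3%, Tdo2 at 41.3% and Fibcd1 at 44.5%. In mouse 0, Lct stood at 10.5%, Spink8 at 13.8%, Dsp at 14.7%, Fibcd1 at 42.8%, Tdo2 at 43.2%, C1ql2 at 49.9% and Prox1 at 59.2%. The order did not follow the subfield, since in both mice the granule cell markers Prox1 and Tdo2 lay above the CA1 marker Spink8, and Lct and Dsp below the CA1 marker Fibcd1.

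Over the 34 mice the members varied together. Pearson's r of log2 CPM for the 21 pairs ran from 0.448 for Prox1 and Fibcd1 (Spearman's rho 0.320) to 0.979 for Dsp and Lct (rho 0.936), and all 21 had an adjusted p under 0.05 by permutation of mice, 17 of them at the smallest p that 100000 permutations can give, 1e-05. By rank 19 of 21 passed, and Prox1 did not with Fibcd1 (adjusted p = 0.0704 by permutation) or with Spink8 (rho 0.295, adjusted p = 0.0911 by permutation). Without the 2 mice farthest from the median of Dsp, r of Dsp and Lct was 0.922. Mice were permuted across all groups, so differences between group means enter these p-values and the later ones by permutation. On deviations from the group means, r ran from 0.177 for Prox1 and Fibcd1 to 0.966 for Dsp and Lct. Because 4 IL-4 MSCs mice at 3 wpi stand apart, r was also taken over the 29 mice of the other groups. There the 15 pairs without Prox1 had an r of 0.623 to 0.924, while the 6 pairs with Prox1 had an r of -0.077 to 0.417. C1ql2, a granule cell marker, was closer to the CA1 marker Fibcd1 (r = 0.879 over 34 mice, 0.924 over 29) than to Prox1, and Dsp and Lct were at 0.906 over the 29. All values of a mouse come from 1 library and 1 block of tissue, so these correlations describe the libraries.

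**Figure D3:**
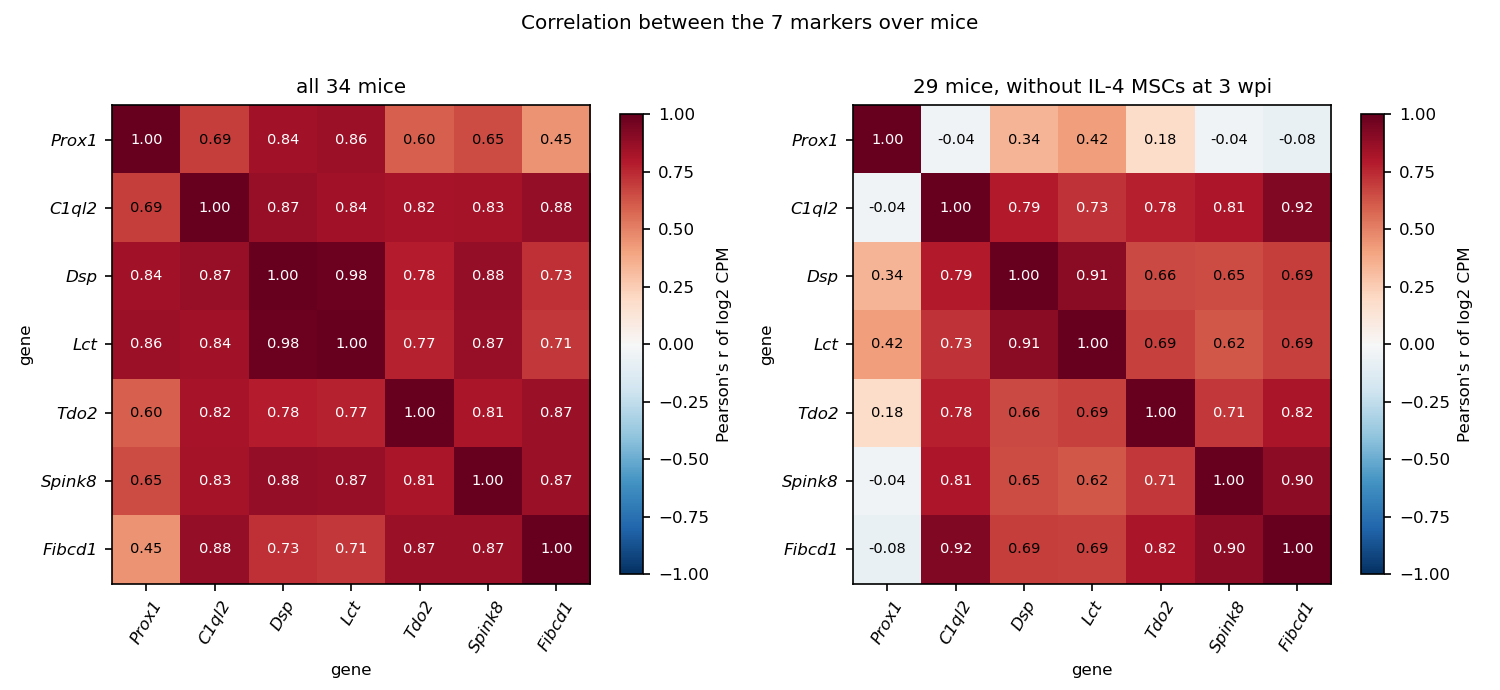
Pearson's r of log2 CPM between the 7 markers (both axes), over all 34 mice on the left and over the 29 mice outside the IL-4 MSCs group at 3 wpi on the right, with colour from -1 (blue) to 1 (red). The row of Prox1 pales on the right, where its 6 values lie between -0.077 and 0.417, while the other 15 pairs stay at 0.623 or above.

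Markers of neighbouring regions were followed through lists, since a block around an injection site can hold more or less of each. The summed level of 13 striatal markers was 1855, 492, 1798, 3060 and 2245 CPM in IL-4 MSCs mice at 3 wpi, 348 and 327 CPM in Sham mice of week 1, and 858, 960 and 1062 CPM in Sham mice of week 3. The same 4 IL-4 MSCs mice that were low in the hippocampal markers were thus the highest of the series, and mouse 1 was not among them. Sums ran from 403 to 533 CPM in PBS mice and from 550 to 1067 CPM in IL-4 MSCs mice at 1 wpi. In MSCs mice at 1 wpi they ran from 359 to 1082 CPM, and at 3 wpi from 340 to 663 CPM with PBS and from 377 to 899 CPM with MSCs. No striatal marker was at 0 in any library. In IL-4 MSCs mice at 3 wpi, 11 of the 13 were called higher against Sham mice, 13 against PBS mice and 12 against MSCs mice. Of all genes, 4.27%, 2.94% and 3.47% were called in these comparisons in either direction. Between the Sham weeks 13 of 13 had a positive log2 difference with none called, against 0.0922% of all genes.

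Each member had a negative correlation with the striatal sum over the 34 mice. Pearson's r was -0.899 for C1ql2, -0.883 for Spink8, -0.877 for Fibcd1, -0.805 for Dsp, -0.797 for Lct, -0.793 for Tdo2 and -0.663 for Prox1, all with an adjusted p under 0.05 by permutation over 91 relations of a member and a list. For Prox1 the relation rested on the IL-4 MSCs mice at 3 wpi, with Spearman's rho at -0.334 (permutation p = 0.0528) and r at -0.025 over the other 29 mice, while the other 6 members kept an r of -0.663 to -0.864 there. What part the share of striatum in the block had in the levels of the members was not tested.

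**Figure D4:**
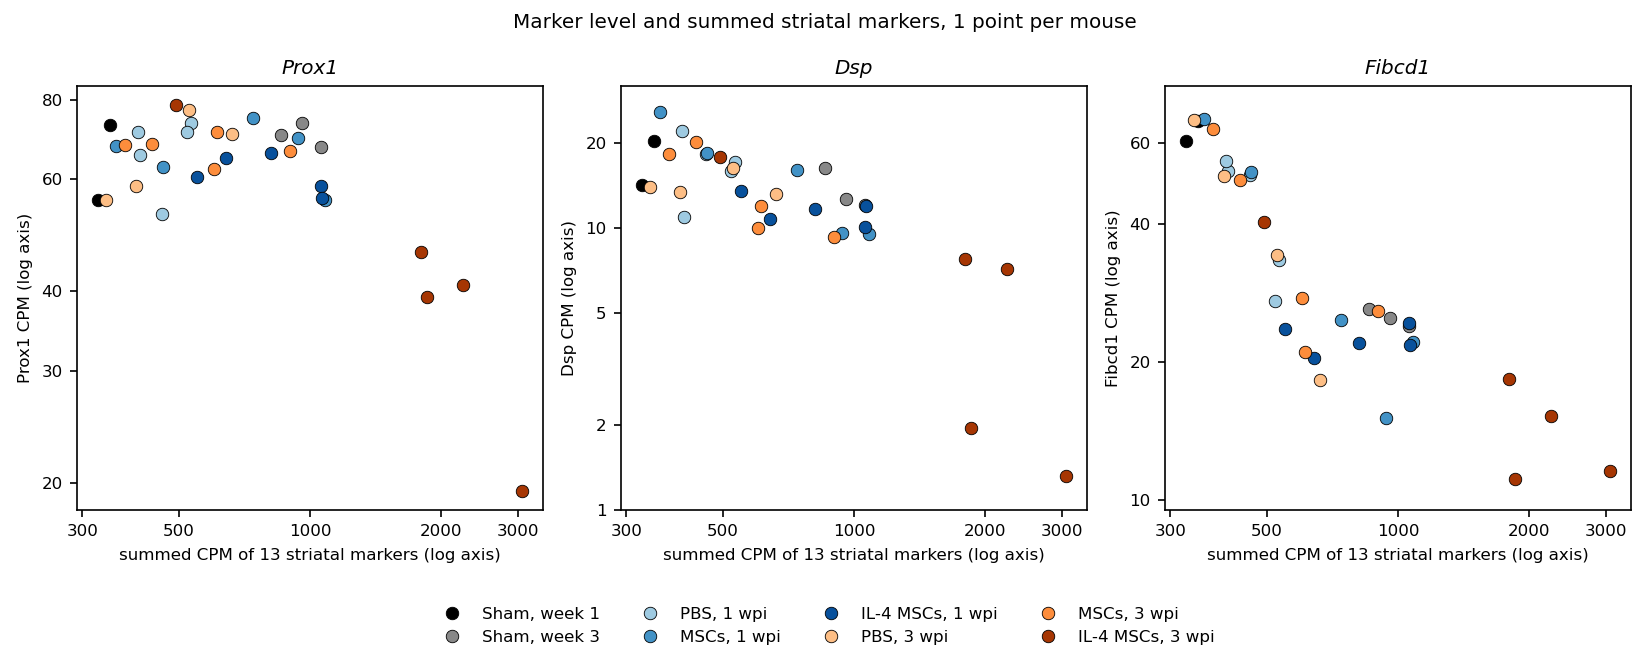
CPM of Prox1, Dsp and Fibcd1 (vertical axes, log scale) against the summed CPM of 13 striatal markers (horizontal axes, log scale), 1 point per mouse, coloured by group. The 4 IL-4 MSCs mice at 3 wpi with striatal sums of 1798 to 3060 CPM have the lowest values of Prox1 and Dsp, and over the other 29 mice r is -0.025 for Prox1.

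Summed thalamic markers (8 genes) stood at 264, 698, 272, 119 and 190 CPM in IL-4 MSCs mice at 3 wpi, against 333 and 252 CPM in Sham mice of week 1 and 583, 657 and 493 CPM in those of week 3. None of the 8 was called in IL-4 MSCs mice at 3 wpi, and 8 of 8 had negative log2 fold changes against Sham, PBS and MSCs mice. Prox1 was the member closest to this sum, with r = 0.799 (rho 0.698, permutation p = 1e-05) over 34 mice and 0.519 over the 29, whereas Fibcd1 had r = 0.001 and -0.692. Choroid plexus markers summed to 409 to 1362 CPM in IL-4 MSCs mice at 3 wpi and to 100 to 503 CPM and 464 to 938 CPM in the Sham mice of week 1 and week 3. The part of either tissue in the levels of the members was not tested.

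Of 7 general neuronal markers, 6 were called lower against Sham mice with IL-4 MSCs at 1 wpi, 3 with PBS and 3 with MSCs. All 7 had negative log2 fold changes in each injured group at 1 wpi. At 3 wpi 0 were called lower in any injured group. Macrophage and microglial markers were called higher against Sham mice for 5 of 5 genes in each injured group at 1 wpi. At 3 wpi they were called higher for 3 of 5 with IL-4 MSCs, 2 with MSCs and 0 with PBS. Their sums were 93.6 to 149 CPM in Sham mice, 324 to 440 CPM in IL-4 MSCs mice at 1 wpi and 122 to 173 CPM in IL-4 MSCs mice at 3 wpi. Against Sham mice at 1 wpi, 4 of 9 cortical layer markers were called lower with IL-4 MSCs, 3 with PBS and 1 with MSCs. In IL-4 MSCs mice at 3 wpi 1 was called higher and 1 lower, and with PBS or MSCs none was called. Of all genes tested, 13.8% with PBS, 17.8% with MSCs and 37% with IL-4 MSCs at 1 wpi were called against Sham mice in either direction. At 3 wpi 4.27% were with IL-4 MSCs, 1.15% with MSCs and 0.0292% with PBS. The share called lower with IL-4 MSCs was 18.5% at 1 wpi and 1.52% at 3 wpi. It was 5.03% with PBS and 6.89% with MSCs at 1 wpi. Summed markers of meningeal fibroblasts (120 to 209 CPM) and of lymphatic endothelium (13.3 to 45.0 CPM) were measured in the same mice, and no part of any of these cells in the levels of the members was tested.

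Other genes of the hippocampal subfields were followed through lists too. The summed level of 5 further granule cell genes was 196, 172, 194, 234 and 204 CPM in IL-4 MSCs mice at 3 wpi, 185 and 179 CPM in Sham mice of week 1 and 203, 197 and 212 CPM in those of week 3. Mouse 3, the lowest of the group for 5 of 7 members, thus had the highest sum of its group and mouse 1 the lowest. A sum is set mostly by the genes with the most reads and does not stand for each gene. The median log2 fold change of these 5 genes against Sham mice was -0.07 at 3 wpi with IL-4 MSCs. Pearson's r of this sum with the 7 members ran from -0.511 to -0.412 over the 34 mice, 4 of 7 with an adjusted p under 0.05, and from -0.254 to 0.025 over the 29 mice outside this group. Against Sham mice at 3 wpi with IL-4 MSCs, the median log2 fold change was -0.13 for 5 CA3 genes, 0.24 for 5 CA2 genes and 0.12 for 3 further CA1 genes, with none called in these 3 lists. Trpc6, a cation channel gene, fell by 0.49 in IL-4 MSCs mice at 1 wpi against Sham mice (adjusted p = 0.0292), and Grik4, a kainate receptor subunit of CA3 cells, fell by 0.29 (adjusted p = 0.0403). Of the further CA1 genes in IL-4 MSCs mice at 1 wpi against Sham mice, Mpped1 had a log2 fold change of -0.43 (adjusted p = 0.0041) and Man1a of 0.31 (adjusted p = 0.0294). Csf2rb2 encodes a cytokine receptor subunit and was listed with the hilar mossy cell genes. Against Sham mice at 1 wpi it rose by 1.12 with PBS, 1.14 with MSCs and 2.54 with IL-4 MSCs. Calb2, the other of the 2 genes of that list, had a negative log2 fold change in each of these comparisons and was not called. No gene of the CA2 list was called in any comparison.

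Among the 10 genes whose log2 CPM was most like the mean of the 7 members over the 34 mice were Cabp7 (r = 0.950), Slc9a4 (0.949), Shisa6 (0.942), Gm2115 (0.940), Rnf182 (0.931), Lefty1 (0.928), Dock9 (0.926), Il16 (0.923) and Galnt17 (0.922). All 10 were the same with a smaller prior count, and 6 of 10 were the same when deviations from the group means were used.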

How the data were processed

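The authors trimmed the reads, assigned them to protein-coding transcripts of GENCODE release M23 with kallisto and deposited estimated counts and TPM per gene and mouse; the submitters' processing notes name cutadapt 2.4, kallisto 0.46 and sleuth 0.30. Deposited columns with their own p-values, q-values and fold changes were not used. A PBS sample of 3 wpi, which the authors excluded because its transcript counts were anomalous, has no column and was not analysed here. Estimated counts were divided by the library total (CPM), and rounded for edgeR 4.0.16 (R 4.3.3): low counts filtered, TMM scaling, 1 quasi-likelihood fit over 7 groups (17131 genes), two-sided, Benjamini-Hochberg adjusted. A second fit kept the Sham weeks apart (17362 genes). Correlations used TMM-scaled log2 CPM of each gene with a prior count of 2. The sums of lists entered as log2 of CPM scaled by the library total alone, without a prior count. The code was tested on simulated data. Positions came from GENCODE (GRCm38), promoters from RefSeq. All 7 members were named, of other lists up to 3 called genes a comparison, and the 10 genes most correlated with the members. Results for 1 gene of these are not reported here. Members and lists were chosen with earlier results of these data known. The labels do not show whether mice were independent of batch, since their further number is constant within each injured group. The p-values treat each mouse as an independent sample.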

Additional observations from a re-analysis of the deposited data

Results flagged for a closer look

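Of 49 sets of values (7 markers in 7 groups), 1 had a mouse far from the others by Dixon's criterion, where chance alone gives about 1 in 20. Fibcd1 stood at 40.3 CPM in IL-4 MSCs mouse 1 at 3 wpi, and the next highest mouse of the group was at 18.4 CPM, a gap of 0.751 of the group's range. The same mouse had the highest level of the group for the other 6 markers.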

How the results depend on the processing

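The number of the 7 markers called against Sham mice changed with the settings. For IL-4 MSCs at 1 wpi it was 1, and 0 with RLE size factors, with library size alone, with no filter on low counts and with the replicate number as a block, 3 with the Sham mice of the same week and 4 with only the 2 groups fitted. For IL-4 MSCs at 3 wpi it was 2, and 0 with the Sham mice of the same week or only the 2 groups, and 3 with the replicate block (C1ql2 added, adjusted p = 0.0353). Against MSCs mice at 3 wpi it was 0, but 1 with the replicate block and 2 with DESeq2. Against PBS mice at 3 wpi it was 0, but 1 with the replicate block. With only the 2 groups fitted it moved from 0 to 5 for IL-4 MSCs against PBS at 1 wpi and from 0 to 4 between the Sham weeks. Among the changed settings, a share of all genes called is given above only for the Sham reference matched by week. Counts under the other settings, including fits of only 2 groups, have no such background. They cannot be read as particular to the markers. The cause of these moves was not tested. Leaving out 1 mouse gave 0 to 1 calls for IL-4 MSCs at 1 wpi against Sham, 0 to 7 for IL-4 MSCs at 3 wpi against Sham, PBS and MSCs, 0 to 5 against IL-4 MSCs at 1 wpi, and 0 in the other 11 comparisons. No called log2 fold change turned sign. Of those not called, leaving out 1 mouse took Spink8 in IL-4 MSCs mice at 1 wpi against Sham from -0.28 (without Sham mouse 4) to 0.11 (without Sham mouse 0), Lct between the Sham weeks from -0.67 (without Sham mouse 1) to 0.19 (without Sham mouse 0), and Prox1 between the Sham weeks from -0.069 (without Sham mouse 1) to 0.33 (without Sham mouse 0). Same-numbered mice moved together in 1 of 15 comparisons (every pair's r over 0.1), so the numbers were not taken as pairs. Depth limits Tdo2 and Spink8 most.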
